A study of Mus musculus with 4 samples.

Results

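RNA from 2 gene-edited mouse embryonic stem cell lines was set against RNA from 2 cultures of wild-type genotype. The edited side held an Ldha knockout (Ldha KO) and an Ldhb knockout (Ldhb KO). The unedited side held wild-type cells (WT, whose values were deposited under the name E14, a mouse embryonic stem cell line) and wild-type cells that the labels call SO. The series text speaks of an inhibitor treatment for SO. The treatment label reads SO treatment without spelling the letters out, and no dose or duration is stated. The separate treatment protocol field gives normal culture for all 4 samples, SO included. These 4 libraries are all the libraries analysed, with 1 library per group. All were grown on gelatin in serum with LIF, the cytokine that keeps these cells undifferentiated, and polyadenylated RNA was sequenced. How many clones each knockout line came from, and whether the edited and unedited cells were cultured side by side, is not stated. The Ldha KO and the Ldhb KO are different genotypes and not replicates of each other, and no test was possible, so no p-value or error is given for any value. A gene was said to separate the sides when the lower value of one side exceeded the higher value of the other by at least 1 on the log2(FPKM + 1) scale, which is 2-fold in FPKM + 1. FPKM is a read count per length of transcript and per depth of library. This distance between the sides is called the gap.

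Lactate dehydrogenase interconverts pyruvate and lactate, and its tetramers are assembled from A subunits, encoded by Ldha, and B subunits, encoded by Ldhb. Embryonic stem cells have a high glycolytic rate and express Ldha strongly. Imprinted genes are expressed from only the maternal or only the paternal copy, under control of DNA methylation laid down in the germline and kept after fertilization by the zinc finger protein Zfp57 with Trim28. Serum with LIF holds the cells in a mixture of naive states, in which Myc and Bmp4 are expressed and Otx2 marks cells closer to the exit from pluripotency.

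The targeted genes followed the labels. Ldha was listed at 154 FPKM in Ldha KO and 2237 FPKM in Ldhb KO, against 1774 FPKM in WT and 1711 FPKM in SO, so its own knockout held 8.67% of the WT level. Ldhb had 158 FPKM in Ldha KO and 5.74 FPKM in Ldhb KO, against 76.5 FPKM in WT and 139 FPKM in SO, and its own knockout held 7.50% of the WT level. Each targeted gene was low in 1 knockout only, so neither separated the sides. Ldhc, the subunit gene of testis, had 4.60 FPKM in Ldha KO and 3.11 FPKM in Ldhb KO, against 1.24 FPKM in WT and 2.58 FPKM in SO. It lay above both unedited libraries, with a gap of 0.20. Hdac1, the histone deacetylase in the title of the study, had 42.0 FPKM in Ldha KO and 44.7 FPKM in Ldhb KO, against 56.1 FPKM in WT and 49.4 FPKM in SO. It was lower in both knockouts by a gap of 0.14, far from the threshold.

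The libraries were alike in summed value and in the number of genes detected. Their summed values lay between 471595 and 526316 FPKM, and between 11952 and 12577 genes reached 1 FPKM. Read depth is not stated, so no counting interval was computed, and low values carry an unknown counting error. The cells carried the transcripts of embryonic stem cells on both sides. Pou5f1, the master regulator of pluripotency, had 972 FPKM in Ldha KO and 1084 FPKM in Ldhb KO, against 1330 FPKM in WT and 1115 FPKM in SO. Nanog and Sox2, its partners, ranged from 204 to 591 FPKM in the knockouts and from 344 to 541 FPKM in WT and SO. The naive factors Esrrb, Zfp42 and Klf4 ranged from 142 to 526 FPKM in the knockouts and from 124 to 624 FPKM in WT and SO. Of 12 fibroblast or feeder markers, Dcn and Lum were at 0 in all 4 libraries and 7 were under 1 FPKM in all. The summed level of these markers was 196 FPKM in Ldha KO and 188 FPKM in Ldhb KO, against 260 FPKM in WT and 207 FPKM in SO. Of 13 mesoderm markers, 10 were under 1 FPKM in all libraries. Marker lists of other lineages were not near 0. The endoderm list summed to between 447 and 481 FPKM per library, and the neuroectoderm list to between 385 and 569 FPKM. The trophectoderm and keratin list summed to 120 FPKM in Ldha KO and 157 FPKM in Ldhb KO, against 87.1 FPKM in WT and 129 FPKM in SO. The value that 1 read is worth, seen in the steps of low values, did not group the libraries by side: its ratio was 1.06 for Ldha KO over Ldhb KO and 1.05 for WT over SO, but 1.005 for Ldha KO over WT and 0.994 for Ldhb KO over SO. The spread of that ratio over genes, from the 10th to the 90th percentile, was narrower within the sides than across them. It was 0.218% of the ratio between the knockouts and 0.0167% between WT and SO, against 0.431% to 0.587% across the sides. The labels name no batch, and what this spread reflects was not tested. A technical difference between the sides, if there was one, cannot be told apart from the edit in the gene values.

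Of 25170 genes, 13142 had a value of at least 1 FPKM in at least 1 library. Among these, 20 genes were higher in both knockouts than in both unedited libraries (0.152%) and 5 were lower (0.0380%). The higher genes included 5 imprinted genes and 5 members of the X-linked Xlr family. Of the 20, 11 were on none of the 37 gene lists. Those 11 include Xlr5b and Rhox1, which belong to the Xlr and Rhox groups added after the values were seen. The lower genes included Myc, Bmp4 and Otx2. In 24 of the 25 genes the gap was wider than the distance between the 2 libraries of either side, and H19 was the exception. This follows largely from the rule. The genes were chosen for a gap of at least 1, and few genes differ by that much within a side. The median difference between the sides over all 13142 genes, taken as the mean log2 of the knockouts minus the mean log2 of WT and SO, was -0.02. Within a side, 219 genes were higher (1.67%) and 202 lower (1.54%) by 1 or more in Ldha KO than in Ldhb KO, while SO exceeded WT by as much in 353 genes (2.69%) and fell short of WT in 62 (0.472%). A wider band of genes was ordered by side with a smaller gap or none demanded: 2181 genes (16.6%) lay above both unedited libraries in both knockouts, and 2509 genes (19.1%) lay below them.

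**Figure D1:**
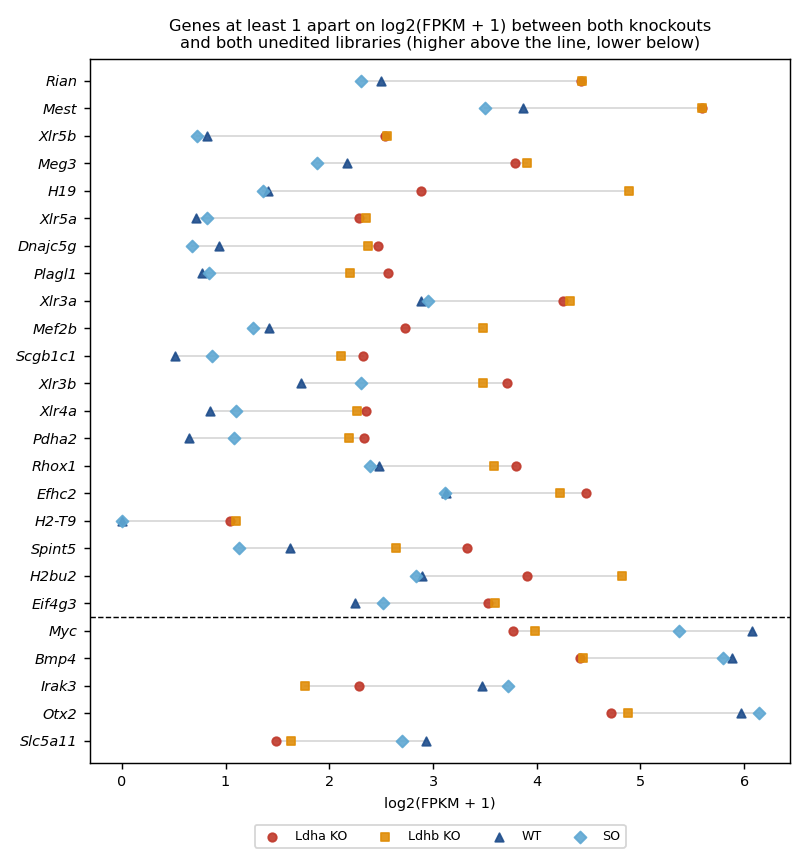
The level of each of the 25 separating genes is plotted as log2(FPKM + 1), with 1 symbol per library: circles for Ldha KO, squares for Ldhb KO, triangles for WT and diamonds for SO. Above the dashed line the 2 knockout symbols lie to the right of both unedited symbols, from Rian with a gap of 1.93 to Eif4g3 with 1.01, and below it they lie to the left, from Myc with 1.40 to Slc5a11 with 1.07.

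The separating genes were mostly of modest level. Of the 20 higher genes, 12 had at least 5 FPKM in both knockouts and 8 had less in at least 1 of them. Mest had the highest WT level of the 20, at 13.6 FPKM. For 14 of the 20, WT or SO reached 1 FPKM; the other 6 passed the filter only through the knockouts, so they could only be higher there. All 5 lower genes had at least 5 FPKM in both WT and SO and reached 1 FPKM in a knockout. Among genes with at least 5 FPKM in both libraries of the higher side, nearest to the threshold on the inside stood Eif4g3 and H2bu2 among the higher genes and Slc5a11 and Otx2 among the lower ones. Just outside it, Wfdc10 had 5.92 FPKM in Ldha KO and 7.77 FPKM in Ldhb KO, against 0.765 FPKM in WT and 2.56 FPKM in SO, a gap of 0.96. The next was Acot1, an acyl-CoA thioesterase gene, with 10.3 FPKM in Ldha KO and 10.8 FPKM in Ldhb KO, against 5.16 FPKM in WT and 5.15 FPKM in SO, a gap of 0.88. On the lower side, 1700030C10Rik had 6.13 FPKM in Ldha KO and 7.10 FPKM in Ldhb KO, against 15.1 FPKM in WT and 15.3 FPKM in SO, a gap of 0.99. Islr2 followed with 5.48 FPKM in Ldha KO and 4.02 FPKM in Ldhb KO, against 13.1 FPKM in WT and 11.5 FPKM in SO, a gap of 0.95. In all, 136 genes were higher and 83 were lower with a gap between 0.5 and 1.

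Imprinted genes gave 4 of the 5 widest gaps. The noncoding RNA Rian, transcribed from the maternal copy of the Dlk1-Dio3 cluster, had 20.5 FPKM in Ldha KO and 20.6 FPKM in Ldhb KO, against 4.65 FPKM in WT and 3.93 FPKM in SO. Its gap of 1.93 was the widest of all, and the mean of the knockouts was 4.79 times that of WT and SO. Meg3, the noncoding RNA at the head of the same maternal unit, had 12.8 FPKM in Ldha KO and 14.03 FPKM in Ldhb KO, against 3.51 FPKM in WT and 2.70 FPKM in SO, a gap of 1.62. Both knockouts held nearly the same level of each RNA, and neither overlapped WT or SO. Mirg, the third noncoding RNA of this unit, lay in the same order with a gap of 0.72. It had 4.19 FPKM in Ldha KO and 4.85 FPKM in Ldhb KO, against 2.15 FPKM in WT and 1.71 FPKM in SO. The protein-coding genes of the cluster, which are expressed from the paternal copy, did not follow. Dlk1, a Notch ligand relative, had 0.733 FPKM in Ldha KO and 1.17 FPKM in Ldhb KO, against 0.831 FPKM in WT and 0.295 FPKM in SO. Dio3, a thyroid hormone deiodinase, had 2.51 FPKM in Ldha KO and 0.439 FPKM in Ldhb KO, against 1.25 FPKM in WT and 1.41 FPKM in SO. In both genes the sides overlapped, and Rtl1 stayed under 0.1 FPKM in every library.

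Mest, a paternally expressed gene for a hydrolase-like protein, had 47.1 FPKM in Ldha KO and 47.2 FPKM in Ldhb KO, against 13.6 FPKM in WT and 10.3 FPKM in SO. The gap was 1.72 and the ratio of the means was 3.95. Its neighbour Copg2, whose annotated 3′ end overlaps that of Mest, had 25.5 FPKM in Ldha KO and 28.2 FPKM in Ldhb KO, against 20.4 FPKM in WT and 22.2 FPKM in SO, a gap of 0.19. Whether reads were counted by strand is not stated, so reads from the overlap cannot be assigned to either gene. Cep41, on the other side of Mest, overlapped between the sides. Plagl1, a paternally expressed zinc finger transcription factor that acts on other imprinted genes, had 4.93 FPKM in Ldha KO and 3.61 FPKM in Ldhb KO, against 0.713 FPKM in WT and 0.793 FPKM in SO. Its gap was 1.36, and it passed the filter only through the knockouts. The annotated noncoding gene Hymai lies within the span of Plagl1, and its reads could not be told apart from those of Plagl1.

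H19, a maternally expressed noncoding RNA, had 6.37 FPKM in Ldha KO and 28.7 FPKM in Ldhb KO, against 1.65 FPKM in WT and 1.57 FPKM in SO. WT and SO were close to each other, and both knockouts were above them with a gap of 1.48. The knockouts differed from each other by 2.01 on the log2(FPKM + 1) scale, more than the gap, so the size of the difference depends on which knockout is taken. Igf2, the growth factor gene that shares its enhancers with H19, had 1.56 FPKM in Ldha KO and 1.15 FPKM in Ldhb KO, against 1.62 FPKM in WT and 1.63 FPKM in SO. It lay lower in both knockouts by a gap of only 0.03.

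The promoter windows of Rian, Mest, Meg3 and Plagl1 show how unlike these imprinted genes are at their starts. Each window runs from 250 bases before to 50 bases after an annotated start, in the RefSeq table of GRCm38.p6. Capitals mark TGCCGC, the sequence that Zfp57 binds when it is methylated, or CACGTG, the E-box that Myc binds with Max, on either strand. No capitals in a window say only that these letters are not there. Both motifs, and the windows of Meg3 and Plagl1, were chosen after the values were seen. Rian (chr12:109603695-109603994, plus strand), without a single CG dinucleotide in the window, reads
Rian: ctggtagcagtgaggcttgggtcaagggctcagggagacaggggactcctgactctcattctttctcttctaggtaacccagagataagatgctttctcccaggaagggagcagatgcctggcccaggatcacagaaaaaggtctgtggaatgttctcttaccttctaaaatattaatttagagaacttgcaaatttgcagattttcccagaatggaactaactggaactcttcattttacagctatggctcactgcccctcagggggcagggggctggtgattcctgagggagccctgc
Meg3 (chr12:109540746-109541045, plus strand), the more CG-rich of 2 annotated starts with 13 CG, reads
Meg3: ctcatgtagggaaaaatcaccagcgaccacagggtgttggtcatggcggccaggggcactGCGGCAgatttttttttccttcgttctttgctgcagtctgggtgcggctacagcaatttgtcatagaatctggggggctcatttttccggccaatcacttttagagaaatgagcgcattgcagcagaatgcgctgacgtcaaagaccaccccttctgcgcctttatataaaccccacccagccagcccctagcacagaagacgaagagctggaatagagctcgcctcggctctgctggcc
Mest (chr6:30737800-30738099, plus strand), the most CG-rich of 3 annotated starts with 17 CG, reads
Mest: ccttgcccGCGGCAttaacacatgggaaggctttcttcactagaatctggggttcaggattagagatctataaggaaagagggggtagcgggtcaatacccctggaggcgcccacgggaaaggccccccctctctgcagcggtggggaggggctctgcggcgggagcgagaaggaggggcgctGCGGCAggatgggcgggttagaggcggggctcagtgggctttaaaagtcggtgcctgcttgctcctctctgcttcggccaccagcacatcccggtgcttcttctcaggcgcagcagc
Plagl1 (chr10:13090582-13090881, plus strand), with 26 CG, reads
Plagl1: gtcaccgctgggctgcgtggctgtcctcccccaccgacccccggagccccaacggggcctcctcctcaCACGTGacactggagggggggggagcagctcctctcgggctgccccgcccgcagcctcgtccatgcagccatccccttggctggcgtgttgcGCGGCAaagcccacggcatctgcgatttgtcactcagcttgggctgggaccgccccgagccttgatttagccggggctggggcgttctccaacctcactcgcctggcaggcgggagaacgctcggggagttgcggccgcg
TGCCGC stood 2 times in the Mest window and 1 time each in those of Meg3 and Plagl1. These were the only 3 of the 18 higher genes with a window in the table that held it. Over all 32851 windows of the table, 11.6% held TGCCGC, and the median window held 7 CG, with quartiles of 3 and 20. The 11.6% is a share of windows, while the 3 of 18 are genes with the motif in any of their windows.

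Over the list of imprinted genes, 31 of 36 found passed the filter. The 5 genes above separated higher and none separated lower. A further 7 lay above both unedited libraries with a smaller gap, so 12 did so in all (38.7%, against 16.6% of all genes), and 4 lay below (12.9%, against 19.1%). Among those with smaller gaps, Impact, a regulator of translation, had 114 FPKM in Ldha KO and 67.0 FPKM in Ldhb KO, against 52.96 FPKM in WT and 46.6 FPKM in SO. Igf2r, the receptor that clears Igf2, had 22.3 FPKM in Ldha KO and 19.8 FPKM in Ldhb KO, against 13.02 FPKM in WT and 16.1 FPKM in SO. Snrpn, a splicing gene of the Prader-Willi region, stood in the opposite order, with 120 FPKM in Ldha KO and 150 FPKM in Ldhb KO, against 195 FPKM in WT and 170 FPKM in SO. The other 15 overlapped between the sides, among them the paternally expressed Peg10. The median side difference of the list was 0.33, and between 0.18 and 0.35 when any 1 library was left out. 3 of the 31 reached 1 FPKM only in the knockouts, so these shares describe the members that passed and not the whole list.

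Zfp57 itself had 270 FPKM in Ldha KO and 238 FPKM in Ldhb KO, against 373 FPKM in WT and 411 FPKM in SO. It had the widest gap of the 17 genes of DNA methylation and its maintenance, at 0.47, and none of them separated. Tet1, an enzyme of demethylation, and Dnmt3a, a methyltransferase, also lay below both unedited libraries, with gaps of 0.06 and 0.01. In all, 3 of the 17 lay below (17.6%, near the 19.1% of all genes) and none above (against 16.6%). The other 14, including Dnmt1, Uhrf1 and Trim28, overlapped. DNA methylation was not measured in these libraries.

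**Figure D2:**
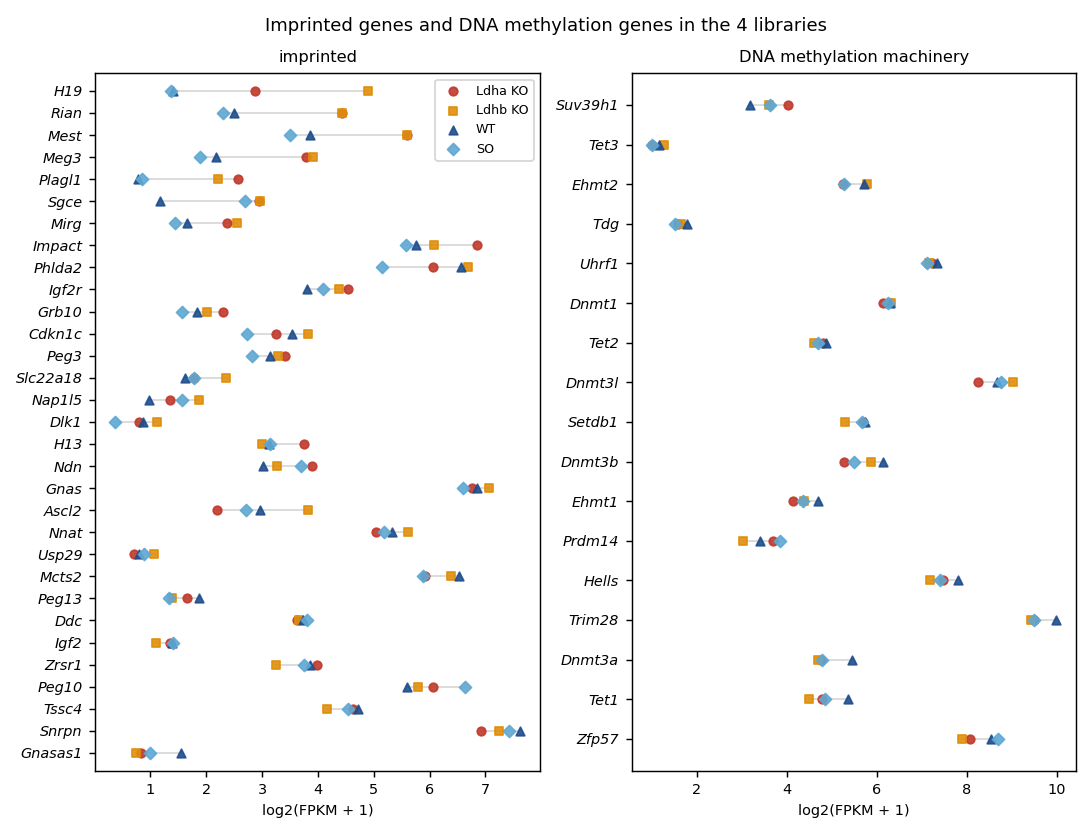
Levels of the 31 imprinted genes and the 17 DNA methylation genes that passed the filter are plotted as log2(FPKM + 1), ordered by side difference, with 1 symbol per library (circles Ldha KO, squares Ldhb KO, triangles WT, diamonds SO). H19, Rian, Mest, Meg3 and Plagl1 stand apart at the top of the left panel, and Zfp57 at the bottom of the right panel has both knockouts (270 and 238 FPKM) to the left of WT and SO (373 and 411 FPKM).

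The Xlr family, X-linked relatives of the meiotic chromosome protein Sycp3, supplied 5 of the 20 higher genes. Xlr3a had 18.1 FPKM in Ldha KO and 18.97 FPKM in Ldhb KO, against 6.38 FPKM in WT and 6.71 FPKM in SO, a gap of 1.31. Xlr3b, which is imprinted in mouse brain, had 12.1 FPKM in Ldha KO and 10.2 FPKM in Ldhb KO, against 2.302 FPKM in WT and 3.93 FPKM in SO, a gap of 1.18. In both genes the knockouts were close to each other and well clear of the unedited libraries. Xlr5b had 4.82 FPKM in Ldha KO and 4.88 FPKM in Ldhb KO, against 0.768 FPKM in WT and 0.653 FPKM in SO. Its near copy Xlr5a had 3.88 FPKM in Ldha KO and 4.12 FPKM in Ldhb KO, against 0.642 FPKM in WT and 0.767 FPKM in SO. Xlr4a had 4.12 FPKM in Ldha KO and 3.81 FPKM in Ldhb KO, against 0.801 FPKM in WT and 1.15 FPKM in SO. The gaps of these 3 genes were 1.72, 1.46 and 1.16, all at low levels in WT and SO.

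The 5 genes are neighbours: their promoter windows fall between positions 73082458 and 73192228 of chromosome X in GRCm38.p6, a stretch of 110 kb. They are also hard to tell apart by sequence. The windows of Xlr5a and Xlr5b share an unbroken run of 255 bases of 300, so reads could be split between the copies or counted for only 1 of them, and the 5 are not 5 independent observations. The window of Xlr5b (chrX:73148591-73148890, plus strand) is shown because it had the widest gap of the family; it holds 16 CG and neither motif, and reads
Xlr5b: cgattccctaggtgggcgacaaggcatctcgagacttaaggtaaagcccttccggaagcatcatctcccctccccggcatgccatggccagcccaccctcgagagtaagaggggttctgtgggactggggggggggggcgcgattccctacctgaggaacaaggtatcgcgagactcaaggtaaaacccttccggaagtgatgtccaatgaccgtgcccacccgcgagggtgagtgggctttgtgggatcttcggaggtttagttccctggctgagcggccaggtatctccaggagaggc
All 10 members of the family passed the filter, 5 of them only through the knockouts, so these 5 could not lie below. Above both unedited libraries lay 9 of the 10 (90%, against 16.6% of all genes). Xlr3c was the most uneven of these, with 13.6 FPKM in Ldha KO and 3.53 FPKM in Ldhb KO, against 1.12 FPKM in WT and 1.56 FPKM in SO. Xlr alone overlapped. The family was picked out after its values were seen.

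Rhox1, a homeobox gene of the X-linked reproductive cluster, had 12.9 FPKM in Ldha KO and 11.02 FPKM in Ldhb KO, against 4.57 FPKM in WT and 4.26 FPKM in SO, a gap of 1.11. Of 31 Rhox genes found, 7 passed the filter, 1 of them only through the knockouts, and 5 of the 7 lay above both unedited libraries (71.4%, against 16.6% of all genes). Rhox5, the most abundant, had 76.1 FPKM in Ldha KO and 41.4 FPKM in Ldhb KO, against 29.4 FPKM in WT and 27.9 FPKM in SO, a gap of 0.48. Efhc2, an X-linked gene for a protein with calcium-binding EF hands, had 21.2 FPKM in Ldha KO and 17.7 FPKM in Ldhb KO, against 7.73 FPKM in WT and 7.69 FPKM in SO, a gap of 1.10. With these, 7 of the 20 higher genes lay on chromosome X, which is 1.43% of its 488 genes past the filter. Over all genes this share was 0.152%, and the next largest share of a chromosome was 0.441%, on chromosome 12. Of the 7, 5 are the Xlr neighbours, which are not independent observations. By smaller differences the chromosome as a whole did not stand out. Its median side difference was 0.03, and 19.1% of its genes lay above both unedited libraries. The other chromosomes ranged from 13.5% on chromosome 7 to 21.8% on chromosome 12.

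The list of germline and meiosis genes held 4 separating genes, all of them Xlr members, and none was lower. Of the 30 that passed the filter, 21 lay above both unedited libraries (70.0%, against 16.6% of all genes) and none lay below (against 19.1%). The 21 include Xlr3a, Xlr3b, Xlr3c, Xlr4a, Xlr5a and Rhox5. These genes are also counted in the Xlr and Rhox shares above, so the shares are not separate observations. Sycp3, a core protein of the meiotic chromosome axis, had 47.0 FPKM in Ldha KO and 40.8 FPKM in Ldhb KO, against 23.5 FPKM in WT and 17.7 FPKM in SO, a gap of 0.77. Tuba3a, a testis alpha-tubulin with a near copy in Tuba3b, had 99.9 FPKM in Ldha KO and 92.5 FPKM in Ldhb KO, against 51.6 FPKM in WT and 41.1 FPKM in SO, a gap of 0.83. Stra8, the retinoic acid target that opens meiosis, had 31.0 FPKM in Ldha KO and 14.8 FPKM in Ldhb KO, against 2.71 FPKM in WT and 9.41 FPKM in SO, so the libraries within each side differed widely. Apart from Xlr3c, with a gap of 0.82, the other germline genes in this order had gaps of up to 0.48. They included Smc1b, a meiotic cohesin subunit, with 18.8 FPKM in Ldha KO and 28.9 FPKM in Ldhb KO, against 13.7 FPKM in WT and 11.7 FPKM in SO. Ddx4, a helicase of germ cells, had 16.1 FPKM in Ldha KO and 17.9 FPKM in Ldhb KO, against 12.3 FPKM in WT and 11.6 FPKM in SO. Dazl, a germ cell RNA-binding protein, overlapped because Ldhb KO, at 16.5 FPKM, lay below SO, at 24.0 FPKM. The median side difference of the list was 0.76, with a range of 0.50 without WT to 1.08 without Ldhb KO, and 1 of the 30 reached 1 FPKM only in the knockouts. In bulk RNA a larger share of cells that express such a gene and more RNA per cell cannot be told apart.

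**Figure D3:**
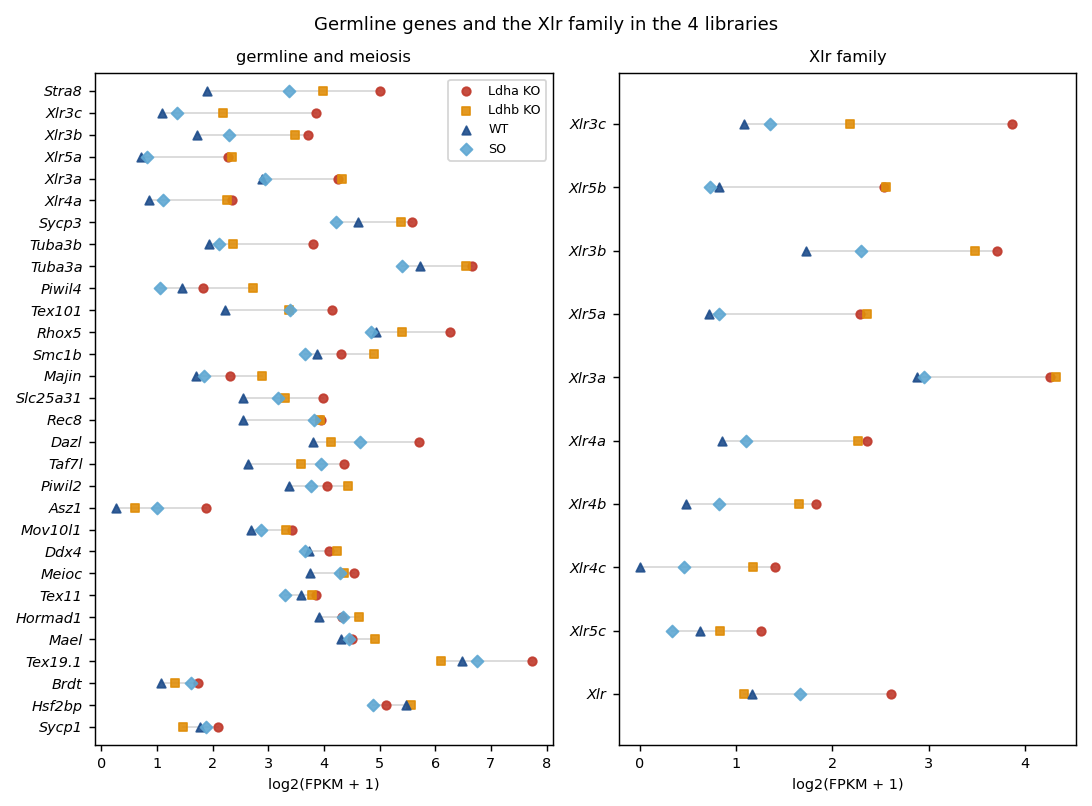
Levels of the 30 germline and meiosis genes past the filter (left) and of the 10 Xlr genes (right) are plotted as log2(FPKM + 1), ordered by side difference, with circles for Ldha KO, squares for Ldhb KO, triangles for WT and diamonds for SO. Both knockouts lie to the right of both unedited libraries in 21 of the 30 genes on the left and in 9 of the 10 on the right. Over all genes past the filter this share was 16.6%. Xlr3a, Xlr3b, Xlr3c, Xlr4a and Xlr5a are plotted in both panels. Only through the knockouts did 1 gene on the left and 5 on the right pass the filter.

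The remaining higher genes belonged to no common list. Pdha2, the testis form of the pyruvate dehydrogenase alpha subunit, had 4.03 FPKM in Ldha KO and 3.57 FPKM in Ldhb KO, against 0.568 FPKM in WT and 1.12 FPKM in SO, a gap of 1.11. Its somatic counterpart Pdha1 stood in the opposite order, with 96.7 FPKM in Ldha KO and 94.2 FPKM in Ldhb KO, against 126 FPKM in WT and 102 FPKM in SO. The Pdha2 transcript thus remained far rarer than that of Pdha1 in every library, on the FPKM scale. Dnajc5g, a testis member of the DnaJ chaperone family, had 4.54 FPKM in Ldha KO and 4.18 FPKM in Ldhb KO, against 0.913 FPKM in WT and 0.6004 FPKM in SO, a gap of 1.44. Scgb1c1, a secretoglobin gene, had 4.004 FPKM in Ldha KO and 3.33 FPKM in Ldhb KO, against 0.430 FPKM in WT and 0.822 FPKM in SO, a gap of 1.25. These 3 genes, Xlr5b and H2-T9 fell outside the rule for named genes, through low values, and were named after their values were seen.

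Mef2b, a MADS-box transcription factor, had 5.62 FPKM in Ldha KO and 10.2 FPKM in Ldhb KO, against 1.68 FPKM in WT and 1.40 FPKM in SO, a gap of 1.30. H2bu2, a histone H2B gene whose sequence resembles the other H2B genes, had 13.99 FPKM in Ldha KO and 27.3 FPKM in Ldhb KO, against 6.41 FPKM in WT and 6.12 FPKM in SO, a gap of 1.02. In both genes the higher library was Ldhb KO. Spint5, a Kunitz-type protease inhibitor gene, was higher in Ldha KO, with 9.03 FPKM there and 5.24 FPKM in Ldhb KO, against 2.08 FPKM in WT and 1.19 FPKM in SO. Its gap was 1.02. Eif4g3, a scaffold of translation initiation, had 10.5 FPKM in Ldha KO and 11.1 FPKM in Ldhb KO, against 3.75 FPKM in WT and 4.74 FPKM in SO, a gap of 1.01. H2-T9, a class I histocompatibility gene of a family with near-identical copies, had 1.06 FPKM in Ldha KO and 1.14 FPKM in Ldhb KO and was listed at 0 in WT and SO.

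Genes that were lower in both knockouts were fewer and more abundant. Myc, the growth-promoting transcription factor downstream of LIF and ERK signalling, had 12.7 FPKM in Ldha KO and 14.8 FPKM in Ldhb KO, against 66.5 FPKM in WT and 40.5 FPKM in SO. The gap was 1.40 and the ratio of the means was 0.257. The knockouts were close to each other, and WT exceeded SO. Its relative Mycn overlapped between the sides, with 29.8 FPKM in Ldha KO and 67.0 FPKM in Ldhb KO, against 64.5 FPKM in WT and 43.8 FPKM in SO. Max, the partner of Myc, had 72.8 FPKM in Ldha KO and 77.0 FPKM in Ldhb KO, against 102 FPKM in WT and 91.1 FPKM in SO, a gap of 0.24. Of the 22 genes of the Myc and ribosome biogenesis list, Myc separated, 7 lay below both unedited libraries (31.8%, against 19.1% of all genes) and none lay above. Apart from Myc these gaps were small, from 0.02 to 0.24. Dkc1, the pseudouridine synthase of ribosomal RNA, had 101 FPKM in Ldha KO and 106 FPKM in Ldhb KO, against 149 FPKM in WT and 114 FPKM in SO. The list's median side difference was -0.23, and it was -0.08 without WT.

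Bmp4, the secreted ligand that acts through Smad proteins on the Id genes, had 20.3 FPKM in Ldha KO and 20.8 FPKM in Ldhb KO, against 58.1 FPKM in WT and 54.7 FPKM in SO. The libraries of each side lay close together, the gap was 1.35 and the ratio of the means was 0.364. The Id genes did not stand in the order of their ligand. Id1 had 223 FPKM in Ldha KO and 308 FPKM in Ldhb KO, against 182 FPKM in WT and 197 FPKM in SO. Id2 had 153 FPKM in Ldha KO and 106 FPKM in Ldhb KO, against 57.0 FPKM in WT and 72.3 FPKM in SO, with the knockouts higher by a gap of 0.55. Id3 and Id4 overlapped. Lefty2, an inhibitor and target of Nodal, had 23.1 FPKM in Ldha KO and 21.1 FPKM in Ldhb KO, against 74.4 FPKM in WT and 39.9 FPKM in SO, a gap of 0.76. Nodal itself overlapped. Over the 20 Nodal and BMP genes past the filter, 1 separated lower, 5 lay below both unedited libraries (25%, against 19.1%) and 3 lay above (15.0%, against 16.6%).

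Otx2, a transcription factor of the passage to formative pluripotency, had 25.3 FPKM in Ldha KO and 28.4 FPKM in Ldhb KO, against 61.6 FPKM in WT and 69.4 FPKM in SO, a gap of 1.09. It was the only one of the 25 genes whose gap fell below 1 in any setting that gave the gene a value. This happened when each library was rescaled to the summed value of WT. Of 21 formative and primed genes past the filter, 8 lay below both unedited libraries (38.1%, against 19.1% of all genes) and none lay above. Foxd3, a transcription factor of the early epiblast, had 12.96 FPKM in Ldha KO and 5.54 FPKM in Ldhb KO, against 18.9 FPKM in WT and 17.0 FPKM in SO. Pou3f1, a POU-domain factor of the same stage, had 3.20 FPKM in Ldha KO and 4.66 FPKM in Ldhb KO, against 8.09 FPKM in WT and 6.11 FPKM in SO. The median of the list was -0.32, and WT weighed in it: without WT the median was -0.09, and without SO it was -0.60.

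The FGF and ERK list, which holds Myc, had most of its members overlapping between the sides. Spry2, a feedback inhibitor of receptor tyrosine kinases, had 17.8 FPKM in Ldha KO and 33.4 FPKM in Ldhb KO, against 72.1 FPKM in WT and 59.2 FPKM in SO, a gap of 0.81. Dusp6, a phosphatase of ERK, had 22.6 FPKM in Ldha KO and 26.4 FPKM in Ldhb KO, against 47.4 FPKM in WT and 41.3 FPKM in SO, a gap of 0.63. Of the 20 FGF and ERK genes past the filter 5 lay below both unedited libraries (25%, a share near the 19.1% of all genes) and none above, and the other 15 overlapped. Fgf4, the ligand, and Egr1, an ERK target, were among those that overlapped. The list's median was -0.27, and it was -0.08 without Ldha KO and -0.10 without WT. Some immediate early genes stood in the opposite order to Myc. Dusp1, a phosphatase of stress kinases, had 89.7 FPKM in Ldha KO and 56.6 FPKM in Ldhb KO, against 37.1 FPKM in WT and 35.0 FPKM in SO, a gap of 0.60.

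Irak3, a brake on signalling from Toll-like and interleukin-1 receptors, had 3.89 FPKM in Ldha KO and 2.39 FPKM in Ldhb KO, against 10.1 FPKM in WT and 12.2 FPKM in SO, a gap of 1.18. Slc5a11, a sodium-dependent transporter of myo-inositol, had 1.79 FPKM in Ldha KO and 2.10 FPKM in Ldhb KO, against 6.63 FPKM in WT and 5.49 FPKM in SO, a gap of 1.07.

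Promoter windows of the first 3 lower genes with an entry are given with the same marks, since Myc, which binds CACGTG, is among the lower genes. Bmp4 (chr14:46390620-46390919, minus strand), with 12 CG, reads
Bmp4: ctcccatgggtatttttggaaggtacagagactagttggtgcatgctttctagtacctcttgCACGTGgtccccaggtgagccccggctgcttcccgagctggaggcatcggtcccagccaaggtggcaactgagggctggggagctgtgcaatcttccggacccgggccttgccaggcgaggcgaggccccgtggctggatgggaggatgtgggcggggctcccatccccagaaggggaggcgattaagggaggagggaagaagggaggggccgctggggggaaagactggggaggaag
Irak3 (chr10:120201548-120201847, minus strand), the window with 26 CG of 2 annotated starts, reads
Irak3: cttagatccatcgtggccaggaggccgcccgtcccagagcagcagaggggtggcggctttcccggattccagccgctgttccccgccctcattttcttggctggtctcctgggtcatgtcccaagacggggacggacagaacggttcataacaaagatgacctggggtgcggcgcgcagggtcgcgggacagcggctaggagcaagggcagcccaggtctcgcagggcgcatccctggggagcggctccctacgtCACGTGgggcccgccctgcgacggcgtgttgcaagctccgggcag
Otx2 (chr14:48665060-48665359, minus strand), the most CG-rich of 4 annotated starts with 16 CG, reads
Otx2: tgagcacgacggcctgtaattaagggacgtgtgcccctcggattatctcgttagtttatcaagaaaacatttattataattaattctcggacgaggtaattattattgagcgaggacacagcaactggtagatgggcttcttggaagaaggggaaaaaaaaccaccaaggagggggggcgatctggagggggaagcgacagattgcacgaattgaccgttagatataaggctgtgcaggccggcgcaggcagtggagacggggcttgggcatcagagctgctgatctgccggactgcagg
CACGTG stood 1 time in the windows of Bmp4 and Irak3, 2 of the 4 lower genes with a window, and in that of Plagl1, 1 of the 18 higher genes with one. CACGTG was held by 7.15% of all windows, a share of windows, while the counts above are genes with the motif in any of their windows. TGCCGC stood in none of the windows of the 4 lower genes. A match says nothing of whether a factor was bound in these cells.

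**Figure D4:**
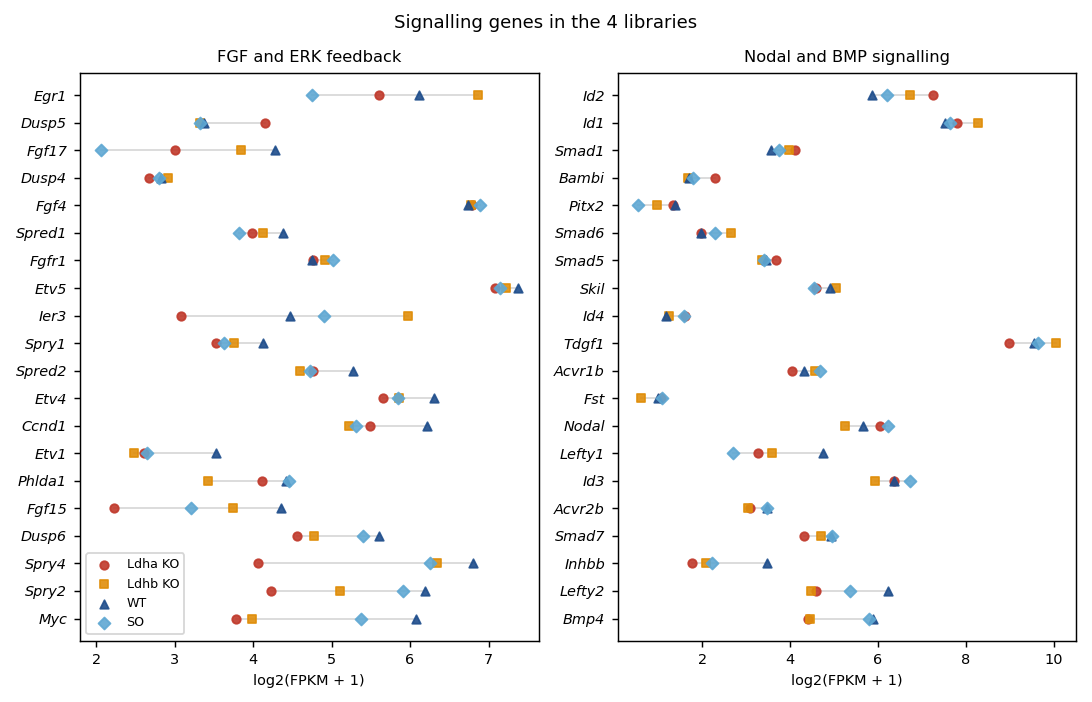
Levels of the 20 FGF and ERK genes (left) and the 20 Nodal and BMP genes (right) past the filter are plotted as log2(FPKM + 1), ordered by side difference, with circles for Ldha KO, squares for Ldhb KO, triangles for WT and diamonds for SO. At the bottom of the left panel both knockouts lie to the left of WT and SO for Myc, Spry2 and Dusp6, and at the bottom of the right panel they do so for Bmp4 and Lefty2, while Id2 at the top has both knockouts to the right.

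Of 37 gene lists with 916 entries, 7 held a separating gene and 30 held none. Among the latter, transcripts of the amino acid starvation response showed the most ordering. Of 33 such genes past the filter, 18 lay above both unedited libraries (54.5%, against 16.6% of all genes) and 1 below (3.03%, against 19.1%). Of the 33, 2 passed the filter only through the knockouts, so they could not lie below. Atf5, a transcription factor of that response, had 34.3 FPKM in Ldha KO and 38.0 FPKM in Ldhb KO, against 22.8 FPKM in WT and 14.6 FPKM in SO, a gap of 0.57. Atf3 had 14.1 FPKM in Ldha KO and 5.14 FPKM in Ldhb KO, against 2.47 FPKM in WT and 2.77 FPKM in SO, a gap of 0.70. Ddit3, a further transcription factor of stress, had 21.0 FPKM in Ldha KO and 98.3 FPKM in Ldhb KO, against 15.6 FPKM in WT and 8.90 FPKM in SO. Atf4 itself had 218 FPKM in Ldha KO and 264 FPKM in Ldhb KO, against 213 FPKM in WT and 130 FPKM in SO, a gap of 0.03. The other 14 genes overlapped. Among them, Chac1 had 2.34 FPKM in Ldha KO and 42.4 FPKM in Ldhb KO, against 17.1 FPKM in WT and 4.07 FPKM in SO. Trib3 had 10.3 FPKM in Ldha KO and 39.9 FPKM in Ldhb KO, against 21.0 FPKM in WT and 15.3 FPKM in SO. In both genes Ldha KO was the lowest library. The median side difference of the list was 0.52, with a range of 0.21 without Ldhb KO to 0.87 without Ldha KO. By this median Ldhb KO lay further from WT and SO than Ldha KO did, though Atf3 was higher in Ldha KO.

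Transcripts of the glutathione and Nrf2 defence had 9 of 23 genes above both unedited libraries (39.1%, against 16.6% of all genes) and 2 below (8.70%, against 19.1%), and 1 of the 23 passed the filter only through the knockouts. Hmox1, the inducible heme oxygenase, had 190 FPKM in Ldha KO and 141 FPKM in Ldhb KO, against 83.0 FPKM in WT and 108 FPKM in SO. Gsta3, a glutathione transferase, stood in the opposite order, with 5.99 FPKM in Ldha KO and 4.32 FPKM in Ldhb KO, against 12.1 FPKM in WT and 12.5 FPKM in SO, a gap of 0.91. Hypoxia and HIF targets had a median of 0.52, but only 6 of 30 lay above both unedited libraries (20.0%, near the 16.6% of all genes) and the median without WT was 0.07. For example Ndufa4l2, a mitochondrial protein gene induced by HIF, had 103 FPKM in Ldha KO and 134 FPKM in Ldhb KO, against 21.98 FPKM in WT and 95.2 FPKM in SO. Here SO stood with the knockouts and WT alone was low.

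The genes of the 2-cell programme, the state named in the title of the study, did not divide the libraries in this way. All 30 that passed the filter overlapped between the sides. Zscan4c, a marker of that state, had 10.6 FPKM in Ldha KO and 2.06 FPKM in Ldhb KO, against 2.03 FPKM in WT and 16.9 FPKM in SO. Each side held 1 library above 10 FPKM and 1 near 2 FPKM. Core pluripotency genes had 6 of 30 below both unedited libraries (20.0%, against 19.1%) and 1 above (3.33%, against 16.6%). Klf4 was the 1 above, with 193 FPKM in Ldha KO and 142 FPKM in Ldhb KO, against 124 FPKM in WT and 133 FPKM in SO. Of 24 glycolysis genes, 6 lay above (25%, against 16.6%) and 2 below (8.33%, against 19.1%), and 1 of the 24 passed the filter only through the knockouts. Tpi1, the triose isomerase, had 352 FPKM in Ldha KO and 504 FPKM in Ldhb KO, against 296 FPKM in WT and 304 FPKM in SO, a gap of 0.21. Of 38 ribosomal protein genes, 11 lay below (28.9%, against 19.1%) and 3 above (7.89%, against 16.6%), with a median of -0.08.

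**Figure D5:**
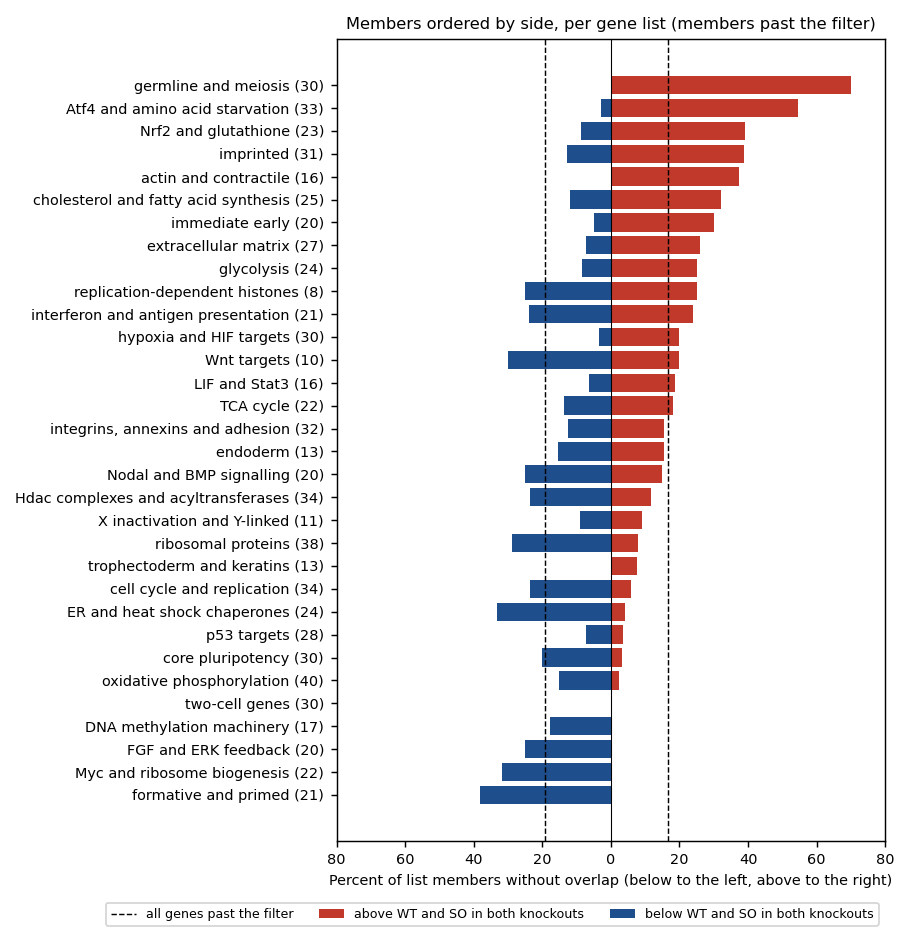
Bars show the percentage of list members whose 2 knockout values both lie above both unedited values (right) or below them (left). Shown are those of the 37 gene lists with at least 8 members past the filter (their number in brackets). The groups added after the values were seen, such as Xlr and Rhox, are not shown. The dashed lines mark all 13142 genes, at 16.6% and 19.1%; germline genes (70.0%) and amino acid starvation genes (54.5%) have the longest bars to the right, and formative genes (38.1%) the longest to the left.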

How the data were processed

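Polyadenylated RNA of 4 cultures of mouse embryonic stem cells was sequenced, 1 library per group, and the authors deposited 1 value for each of 25170 gene symbols per library. These deposited values were read as FPKM, from the values alone: they are fractional, their totals differ between libraries, and their low steps differ between genes. RPKM could not be told apart from FPKM. The submitters' processing notes name the build mm9 and, with no role or order, edgeR 3.26.8, HTSeq 0.11.2, Bowtie2 2.3.4.3 and SAMtools 1.9. Their roles and the gene annotation were not given in the sources used here. If reads that match several places were dropped or shared, genes with near copies are understated or mixed.

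Values were transformed as log2(FPKM + 1) over genes with at least 1 FPKM in at least 1 of the 4 libraries. The gap is the lower log2 value of the higher side minus the higher log2 value of the lower side, and the threshold was 1. The pseudocount of 1 understates differences of genes with low values. Groups were taken from the sample labels. The summed value of each library and the number of genes detected are given, since depth is not stated. FPKM is already divided by depth, so the summed value does not measure it. The value of 1 read was estimated from genes below 0.2 FPKM in both libraries of a pair, as the ratio most of them share, and its spread was taken between the 10th and 90th percentiles. Scripts ran in Python 3.11.15 with numpy 2.4.6, pandas 2.3.3 and matplotlib 3.10.9, and the rule was tested on simulated data.

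The members and lists were chosen with earlier results of these data known. Of 916 list entries, 892 were found by symbol or synonym, and none of the mitochondrial genome list. The Dlk1-Dio3, Mest, H19, Xlr and Rhox groups were added after the values were seen. The rule for named genes took Ldha, Ldhb, Ldhc and Hdac1, the 15 widest gaps in each direction among separating genes with at least 5 FPKM in both libraries of the higher side, and up to 4 separating members of each list. It also took the 2 genes on each side of the threshold and 6 pluripotency factors. Other genes were named after their values were seen. Chromosomes, gene types and promoter windows came from RefSeq tables of GRCm38.p6, a build other than that of the deposited values, and 22 of the 25 separating genes matched a window; motifs were searched on both strands, and those shown do not overlap each other. Proteins were not used here. Alternatives were other pseudocounts, filters, scalings and gaps, protein-coding genes alone, and each library left out.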

Additional observations from a re-analysis of the deposited data

How the results depend on the processing

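With a pseudocount of 0.1, 69 genes separated higher and 20 lower, and with 0.5 the lower count was 11. A filter of 5 FPKM in at least 1 library left 12 higher genes of 9770 tested. With any gap above 0 the counts were 2181 higher and 2509 lower, so that 46.5% of the ordered genes were higher, against 80% at a gap of 1. A gap of at least 1.5 kept 4 higher genes (Meg3, Mest, Rian and Xlr5b) and 0 lower genes, a share of 100%. Rescaling to the summed value of WT gave 22 higher and 4 lower, and rescaling by median ratio gave 20 and 5; 16 of the 20 and all 5 remained among protein-coding genes. Leaving out each library in turn gave 47 to 129 higher genes, 27 to 39 lower genes and a share of 60.3% to 77.1% higher. Without Ldha KO 129 genes were higher and 39 lower, without Ldhb KO 79 and 27, without WT 47 and 31, and without SO 118 and 35; the lowest share was without WT. A rule over 3 libraries asks less of a gene than one over 4, so these counts are larger by construction. Of the 25 genes, 20 higher and 4 lower kept a gap of at least 1 in every setting that gave them a value. The other gap thresholds were not applied to single genes. Only the rescalings could have taken a gene below 1. A smaller pseudocount widens a gap, leaving out a library cannot narrow it, and the filters and the protein-coding choice leave it unchanged. Otx2 fell below 1 with summed values set equal to that of WT. Ldha and Ldhb in their own knockouts held 8.67% to 9.56% and 7.50% to 8.15% of WT over the scalings. The medians of the oxidative phosphorylation, Hdac complex, endoderm and interferon lists changed sign with scaling, and no direction is given for them. No paired analysis was possible because the labels carry no replicate numbers and each group has 1 library. Unknown depth limits the low genes, and 1 library per group leaves every difference without a replicate check.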

Other observations

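Further genes lay apart with a gap between 0.5 and 1; those named here were chosen after their values were seen. Both metallothionein genes, which encode metal-binding proteins, were more abundant in the knockouts. Mt1 had 2899 FPKM in Ldha KO and 2354 FPKM in Ldhb KO, against 1506 FPKM in WT and 911 FPKM in SO. Mt2 had 3834 FPKM in Ldha KO and 3481 FPKM in Ldhb KO, against 2188 FPKM in WT and 1124 FPKM in SO. In both genes SO was the lowest library. Cdkn2a, which encodes inhibitors of the cell cycle, had 41.3 FPKM in Ldha KO and 36.6 FPKM in Ldhb KO, against 14.4 FPKM in WT and 20.1 FPKM in SO, a gap of 0.83. App, the amyloid precursor gene, had 8.84 FPKM in Ldha KO and 9.47 FPKM in Ldhb KO, against 2.94 FPKM in WT and 4.90 FPKM in SO.

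Of 21 interferon and antigen presentation genes, 5 lay above both unedited libraries (23.8%, against 16.6% of all genes) and 5 below (23.8%, against 19.1%), both near the share of all genes. Psmb9, a subunit of the immunoproteasome, had 5.98 FPKM in Ldha KO and 7.34 FPKM in Ldhb KO, against 2.06 FPKM in WT and 3.15 FPKM in SO, a gap of 0.75. Irf1, the transcription factor upstream of many such genes, had 8.82 FPKM in Ldha KO and 9.90 FPKM in Ldhb KO, against 20.3 FPKM in WT and 19.9 FPKM in SO, a gap of 0.94. Trim25, a ubiquitin ligase of antiviral sensing, had 41.4 FPKM in Ldha KO and 41.7 FPKM in Ldhb KO, against 68.6 FPKM in WT and 61.8 FPKM in SO, a gap of 0.56. Sgk1, a kinase induced by serum and glucocorticoids, had 83.6 FPKM in Ldha KO and 54.3 FPKM in Ldhb KO, against 147 FPKM in WT and 146 FPKM in SO.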
